A study of Mus musculus with 12 samples.

Results

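The 10 genes described here encode receptors that guide blood cells along gradients of chemokines, complement fragments and bacterial peptides, and they were taken by symbol from a list: Ccr1, Ccr2, Ccr3, Cx3cr1, Cxcr2, Cxcr4, C3ar1, C5ar1, Fpr1 and Fpr2. All 10 were found among the 23362 genes of the count tables. RNA with poly(A) tails had been sequenced from 4 groups of C57BL/6 mouse cells, with 3 libraries each. GATA2-GMP KO and GATA2-GMP WT were granulocyte-macrophage progenitors (GMP, marrow cells that form granulocytes and monocytes) of Xbp1-deficient and wild-type genotype that had been purified by flow cytometry, transduced with GATA2, sorted again and kept 48 hours in culture. GMP KO and GMP WT were progenitors of the same genotypes that went straight from the sorter into Trizol. GATA2 is a transcription factor of the eosinophil, basophil and mast cell lineages, and XBP1 drives part of the unfolded protein response, which matches folding capacity to secretory load.

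GATA2-GMP libraries were made with a SMARTer Ultra Low Input kit followed by TruSeq, and GMP libraries with TruSeq alone, so that stage, transduction, culture and kit cannot be told apart. These libraries include no GMP group transduced with a control vector. Neither the kind of Xbp1 allele nor the number of animals is given in the labels, so p-values measure only the spread between these libraries, which may be technical.

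Chemoattractant receptors are G-protein-coupled receptors that signal mainly through Gi proteins and are then desensitised by receptor kinases and arrestins. Each myeloid lineage carries its own set in the mouse. Eosinophils follow eotaxins through CCR3, inflammatory monocytes leave the marrow through CCR2, patrolling monocytes carry CX3CR1, neutrophils are mobilised through CXCR2, and CXCR4 holds progenitors and immature granulocytes in the marrow.

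Library totals were 8220484 counts (GMP KO 3) to 33645602 counts (GMP KO 2). Markers of eosinophils (9 genes led by Prg2, Prg3 and Epx) summed to 56380 to 68460 CPM (counts set against scaled library size) in GATA2-GMP KO and 135800 to 207100 CPM in GATA2-GMP WT, against 318.3 to 643.7 CPM in GMP KO and 77.04 to 272.9 CPM in GMP WT. The progenitor marker Cd34 had 11.1 to 13.6 CPM in GATA2-GMP KO and 9.21 to 17.7 CPM in GATA2-GMP WT, against 289.5 to 394.2 CPM in GMP KO and 380.0 to 425.1 CPM in GMP WT. The 7 progenitor markers together (led by Cd34, Fcgr3 and Kit) summed to 1749 to 2534 CPM in GATA2-GMP KO and 1973 to 2889 CPM in GATA2-GMP WT, against 2198 to 2523 CPM in GMP KO and 2392 to 2478 CPM in GMP WT. Of these, Fcgr3 rose in GATA2-GMP (1465 and 1960 CPM on average in KO and WT, against 169.7 and 167.9 CPM in GMP KO and WT) and the other 6 fell in both genotypes. Xbp1 itself had 99.8 to 127.7 CPM in GATA2-GMP KO and 197.1 to 380.8 CPM in GATA2-GMP WT, and 55.9 to 89.8 CPM in GMP KO and 131.4 to 152.9 CPM in GMP WT. Counts per gene also hold reads from exons outside any deleted part of Xbp1. In such bulk libraries, fewer cells of a type and less RNA per cell cannot be told apart.

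The promoters of 4 receptor genes are shown because the genes differ in pattern between the stages and their sequences hold different numbers of the letters bound by GATA factors. Each runs 5′ to 3′ on the strand of its gene, from 250 bases before to 50 bases after the start given by RefSeq (build GRCm38.p6), and capitals mark, on either strand, the letters AGATAA, also when they end in G (AGATAG), begin with T (TGATAA) or do both (as in TGATAG). Ccr3 lies at chr9:124021721-124022020 (plus strand), C3ar1 at chr6:122856108-122856407 (minus), Cx3cr1 at chr9:120068247-120068546 (minus) and Ccr1 at chr9:123968643-123968942 (minus).
Ccr3: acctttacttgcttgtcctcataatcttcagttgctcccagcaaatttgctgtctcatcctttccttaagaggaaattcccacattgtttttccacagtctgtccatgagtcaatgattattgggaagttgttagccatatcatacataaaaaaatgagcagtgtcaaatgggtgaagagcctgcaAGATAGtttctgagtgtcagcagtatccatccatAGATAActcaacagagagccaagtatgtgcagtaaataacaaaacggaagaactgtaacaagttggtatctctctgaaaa
C3ar1: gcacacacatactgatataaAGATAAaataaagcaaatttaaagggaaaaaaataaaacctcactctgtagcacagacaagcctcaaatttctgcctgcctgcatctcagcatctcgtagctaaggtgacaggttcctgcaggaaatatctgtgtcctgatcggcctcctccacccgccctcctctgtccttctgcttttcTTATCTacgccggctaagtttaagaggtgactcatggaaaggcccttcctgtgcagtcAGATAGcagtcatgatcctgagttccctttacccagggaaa
Cx3cr1: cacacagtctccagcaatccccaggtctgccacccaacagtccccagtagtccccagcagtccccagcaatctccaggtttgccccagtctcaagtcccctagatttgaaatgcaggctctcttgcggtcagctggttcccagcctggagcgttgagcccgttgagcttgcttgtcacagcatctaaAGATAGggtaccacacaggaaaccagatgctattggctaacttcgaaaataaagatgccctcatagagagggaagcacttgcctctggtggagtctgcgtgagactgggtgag
Ccr1: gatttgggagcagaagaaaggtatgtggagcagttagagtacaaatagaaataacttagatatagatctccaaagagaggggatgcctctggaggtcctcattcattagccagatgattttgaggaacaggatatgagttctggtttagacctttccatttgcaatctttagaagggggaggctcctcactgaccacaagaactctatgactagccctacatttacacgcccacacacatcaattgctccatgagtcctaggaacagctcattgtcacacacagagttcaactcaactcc

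In the Ccr3 promoter, matches began at positions -64 and -30 from the start, and in the C3ar1 promoter at -230, -49 and 10. Cx3cr1, whose mRNA was lower in GATA2-GMP than in GMP, held a match at -63, and Ccr1, which rose in GATA2-GMP of both genotypes, held none in this window. Matches were found in 5 of the 10 receptor promoters (Ccr2 and Fpr2 besides these 3), and in 29.8% of 32851 mouse promoters of the same length. No receptor promoter held the XBP1-linked letters TGACGTGG (found in 0.7% of promoters) or CCACGT (8.3%), or the ER stress response element known as ERSE (0.1%), on either strand. A match describes the letters in the window and not a bound site.

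The 10 genes lie at several loci of build mm9, the build of the read alignment. Ccr1 (9:123876959-123883525, minus strand), Ccr3 (9:123936703-123946421, plus) and Ccr2 (9:124016689-124028296, plus) are neighbours on chromosome 9, which also carries Cx3cr1 (9:119957811-119977400, minus). Cxcr2 (1:74200563-74207812, plus) and Cxcr4 (1:130484776-130488870, minus) are on chromosome 1. C3ar1 (6:122797156-122806179, minus) and C5ar1 (7:16832092-16844889, minus) are the only ones of the 10 on chromosomes 6 and 7. Fpr1 (17:18013435-18020904, minus) and Fpr2 (17:18024788-18030916, plus) are adjacent on chromosome 17. The Fpr2 model shares 6101 bases with Fpr3 on the same strand. Fpr3 had 0 reads in GATA2-GMP KO, GMP KO and GMP WT and 5 reads in GATA2-GMP WT. Reads that fit both genes may have been set aside as ambiguous in counting, so these counts do not show whether Fpr2 lost reads. Ccr1 has a near copy, Ccr1l1, which had 35 and 20 reads in GATA2-GMP KO and WT and 1 read in each GMP group.

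The first question was how far the receptor set differed between GATA2-transduced, cultured cells and fresh progenitors. Of the 10 receptors, 5 (Ccr3, C3ar1, C5ar1, Fpr1 and Fpr2) had 0 to 22 reads in each GMP group and were well detected in GATA2-GMP of both genotypes, Cx3cr1 went the other way, and Cxcr4 did not pass the test. In wild-type cells, 7 receptors rose in GATA2-GMP (Ccr1, Ccr3, Cxcr2, C3ar1, C5ar1, Fpr1 and Fpr2) and Cx3cr1 fell, at an adjusted p under 0.05 in edgeR's quasi-likelihood test with Benjamini-Hochberg adjustment. That is 8 of 10, where the same rule called 70.5% of the 12251 genes tested (34.1% higher and 36.4% lower). In Xbp1-deficient cells the 7 receptors and Ccr2 rose and Cx3cr1 fell, 9 of 10 against 78.6% of 12438 genes (38.6% higher and 40.0% lower). Libraries of the stages did not overlap for 9 of 10 receptors in KO cells (all but Cxcr4), as for 82.4% of all genes, and for 9 of 10 in WT cells (all but Ccr2), as for 77.2%. With so many genes called, these shares do not set the receptors apart from other genes. C3ar1, C5ar1, Ccr3, Fpr1 and Fpr2 passed the filter on low counts only through their GATA2-GMP libraries, so a difference in them was built into being tested at all. In WT cells the same holds for Cx3cr1, which passed only through its GMP libraries.

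**Figure D1:**
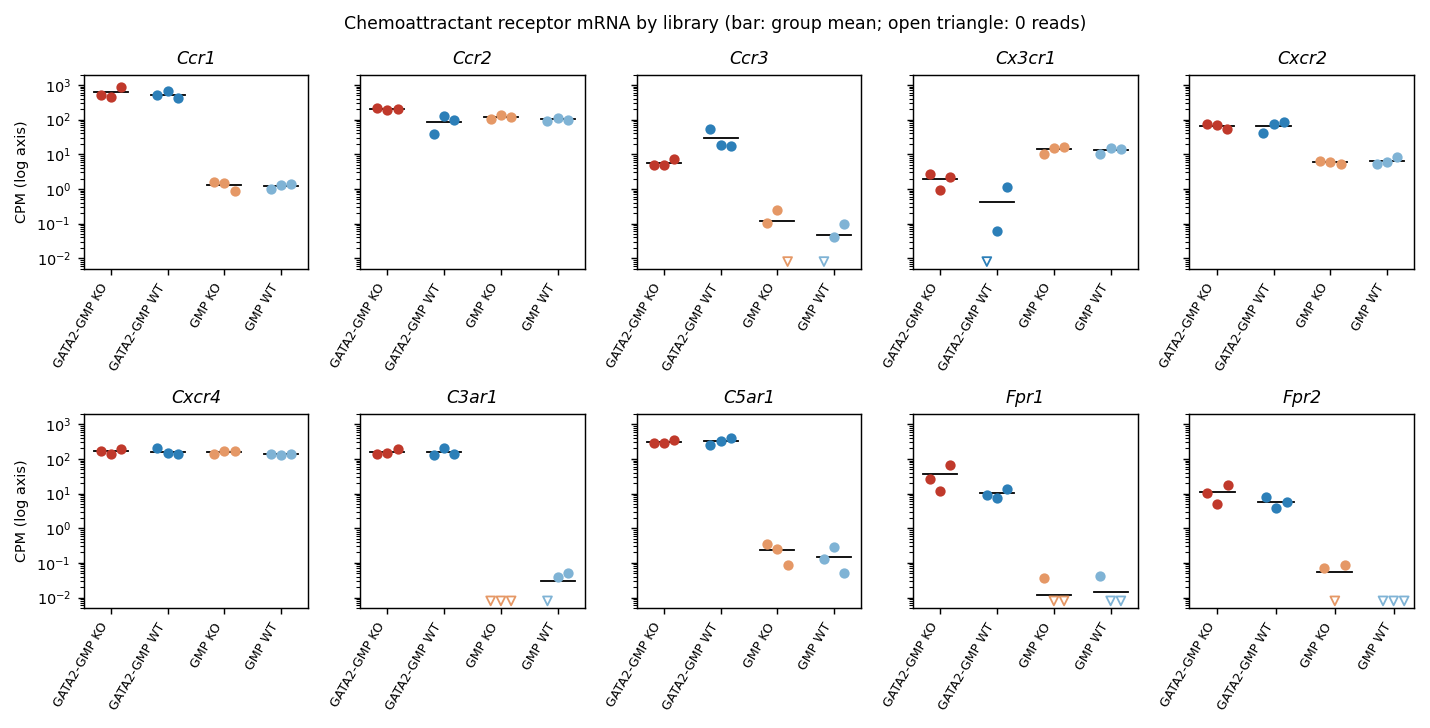
CPM (log axis) of each of the 10 receptors in each of the 12 libraries, by group, with the group mean as a bar and libraries with 0 reads as open triangles. Ccr1, C3ar1 and C5ar1 stood above 100 CPM in all 6 GATA2-GMP libraries and below 2 CPM in all 6 GMP libraries, whereas Cxcr4 lay between 134.0 and 199.9 CPM in all 12.

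Ccr3 is the eotaxin receptor that directs eosinophils to tissues. It had 5.015, 5.05 and 7.13 CPM in GATA2-GMP KO 1 to 3 and 54.1, 18.6 and 17.6 CPM in GATA2-GMP WT 1 to 3. In GMP it had 3, 11 and 0 reads in the KO libraries and 0, 1 and 2 reads in the WT libraries. All GATA2-GMP libraries lay above all GMP libraries, and within GATA2-GMP every KO library lay below every WT library, of which WT 1 held the most Ccr3. Per scaled library size, pooled Ccr3 reads were 33.3 times as many in GATA2-GMP KO as in GMP KO (95% counting interval 19.5 to 61.8, adjusted p = 2.01e-05), and 644 times as many in GATA2-GMP WT as in GMP WT, which had 3 reads (219.8 to 3126, adjusted p = 3.83e-05). These intervals cover counting error only. Ccr3 passed the filter on low counts only through GATA2-GMP, so a difference between the stages was built into its being tested.

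Ccr1 binds CCL3, CCL5 and related chemokines on monocytes, neutrophils and mouse eosinophils. It had 515, 450.0 and 875 CPM in GATA2-GMP KO and 506, 649 and 429 CPM in GATA2-GMP WT. In GMP it had 1.57, 1.45 and 0.896 CPM in KO and 1.03, 1.28 and 1.35 CPM in WT. The stages were far apart in both genotypes, and the genotypes overlapped at both stages. The log2 fold change of GATA2-GMP over GMP was 8.80 (SE 0.37, adjusted p = 2.43e-07) in KO cells and 8.76 (SE 0.28, adjusted p = 1.87e-06) in WT cells.

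The monocyte receptors Ccr2 and Cx3cr1 did not share a pattern. Ccr2, the receptor for CCL2, had 214.8, 191.9 and 199.6 CPM in GATA2-GMP KO and 39.4, 126.3 and 97.4 CPM in GATA2-GMP WT. It had 106.8, 138.6 and 118.6 CPM in GMP KO and 93.4, 111.7 and 98.5 CPM in GMP WT. GATA2-GMP KO was the highest of the 4 groups and apart from the rest, while GATA2-GMP WT was the most scattered, with WT 1 the lowest library of all. Ccr2 rose in GATA2-GMP KO relative to GMP KO, with a log2 difference of 0.74 (SE 0.14, adjusted p = 0.00108), whereas GATA2-GMP WT against GMP WT gave -0.20 (SE 0.37, adjusted p = 0.652).

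Cx3cr1, the receptor for fractalkine, had 46, 15 and 30 reads in GATA2-GMP KO and 0, 1 and 20 reads in GATA2-GMP WT, or 2.68, 0.960 and 2.25 CPM against 0, 0.0627 and 1.17 CPM. In GMP it had 10.5, 14.8 and 16.5 CPM in KO and 10.1, 14.8 and 14.5 CPM in WT. It was the only one of the 10 that was lower in every GATA2-GMP library than in every GMP library. On the log2 scale, its fall in GATA2-GMP KO relative to GMP KO was -2.80 (SE 0.36, adjusted p = 9.27e-05) and that in GATA2-GMP WT relative to GMP WT was -4.87 (SE 0.84, adjusted p = 0.00109). WT 3 held 20 of the 21 Cx3cr1 reads of GATA2-GMP WT, and without it the WT value was -8.24 (adjusted p = 1.10e-05). In WT cells Cx3cr1 passed the filter on low counts only through GMP, so a fall was built into its being tested there.

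Cxcr2 binds CXCL1 and CXCL2 and mobilises neutrophils. It had 75.7, 69.5 and 52.9 CPM in GATA2-GMP KO and 40.2, 75.0 and 86.6 CPM in GATA2-GMP WT. It had 6.29, 5.84 and 5.37 CPM in GMP KO and 5.25, 5.94 and 8.29 CPM in GMP WT. The stages did not overlap and the genotypes did. Cxcr2 rose in GATA2-GMP, with log2 fold changes of 3.50 in KO cells (SE 0.18, adjusted p = 5.73e-07) and 3.38 in WT cells (SE 0.34, adjusted p = 6.95e-05).

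Cxcr4, the CXCL12 receptor that retains cells in the marrow, had 170.0, 136.0 and 190.0 CPM in GATA2-GMP KO and 199.9, 151.7 and 139.6 CPM in GATA2-GMP WT. It had 134.3, 170.9 and 167.1 CPM in GMP KO and 136.2, 134.0 and 138.0 CPM in GMP WT. Groups next to each other in mean overlapped, but each GATA2-GMP WT library lay above each GMP WT library. Its log2 difference between the stages was 0.08 in KO cells (SE 0.17, adjusted p = 0.677) and 0.27 in WT cells (SE 0.17, adjusted p = 0.192), and without GATA2-GMP WT 3 the WT value was 0.46 (adjusted p = 0.00875). The direction depended on the scaling. With plain library totals in place of TMM (trimmed mean of M values) factors, the median of all genes moved to -0.73 in KO cells (-0.05 with TMM) and to -0.93 in WT cells (-0.09 with TMM), and Cxcr4 became lower in GATA2-GMP, at -0.61 (adjusted p = 0.00823) in KO cells and -0.57 (adjusted p = 0.0112) in WT cells. With those totals 7 receptors were called higher and 2 lower in KO cells (3273 and 6681 of all genes, against 4801 and 4976 with TMM), and 7 higher and 3 lower in WT cells (2501 and 6816 of all genes, against 4176 and 4462 with TMM). On the same totals Ccr2 was 0.07 in KO cells (adjusted p = 0.710) and -1.02 in WT cells (adjusted p = 0.0435).

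Both complement receptors had few reads or none in fresh progenitors. C3ar1, the receptor for the anaphylatoxin C3a, had 139.5, 144.6 and 194.5 CPM in GATA2-GMP KO and 127.1, 205.0 and 140.9 CPM in GATA2-GMP WT. It had 0 reads in all 3 GMP KO libraries, which allows up to 0.0363 CPM over the group, and 0, 1 and 1 reads in GMP WT. Against that floor of 3 counts over the group, C3ar1 was at least 4331-fold higher in GATA2-GMP KO than in GMP KO, and the WT ratio was 5454 (95% counting interval 1509 to 45050). C5ar1, the receptor for C5a, had 288.8, 289.4 and 362.2 CPM in GATA2-GMP KO and 259.2, 323.1 and 397.5 CPM in GATA2-GMP WT. It had 10, 11 and 1 reads in GMP KO and 3, 7 and 1 reads in GMP WT. The 2 genes overlapped between the genotypes at both stages, and pooled C5ar1 reads in GATA2-GMP were 1166 times those in GMP in KO cells (769.8 to 1861) and 2073 times in WT cells (1158 to 4154).

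The formyl peptide receptors detect peptides released by bacteria and mitochondria and are best known from neutrophils. Fpr1 had 27.1, 12.03 and 69.0 CPM in GATA2-GMP KO and 9.28, 7.65 and 13.5 CPM in GATA2-GMP WT, and 1 read in each GMP group. Fpr2 had 10.5, 4.99 and 17.5 CPM in GATA2-GMP KO and 7.89, 3.95 and 5.83 CPM in GATA2-GMP WT, with 3 reads in GMP KO and 0 in GMP WT. In both genes KO 3 was the highest of the 6 GATA2-GMP libraries, and a KO library lay among the WT libraries. Pooled Fpr1 reads were 2820 times as many in GATA2-GMP KO as in GMP KO (95% counting interval 505.4 to 111400) and 704 times as many in GATA2-GMP WT as in GMP WT (125.7 to 27860). Fpr2 was 294 times as high in KO cells (99.9 to 1429) and at least 131.5-fold higher in WT cells. Adjusted p-values of the 4 complement and formyl peptide receptors in edgeR's test were 8.63e-08 to 2.03e-05 in KO cells and 2.10e-06 to 0.000117 in WT cells. These genes passed the filter on low counts only through GATA2-GMP, so a difference was built into their being tested.

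**Figure D2:**
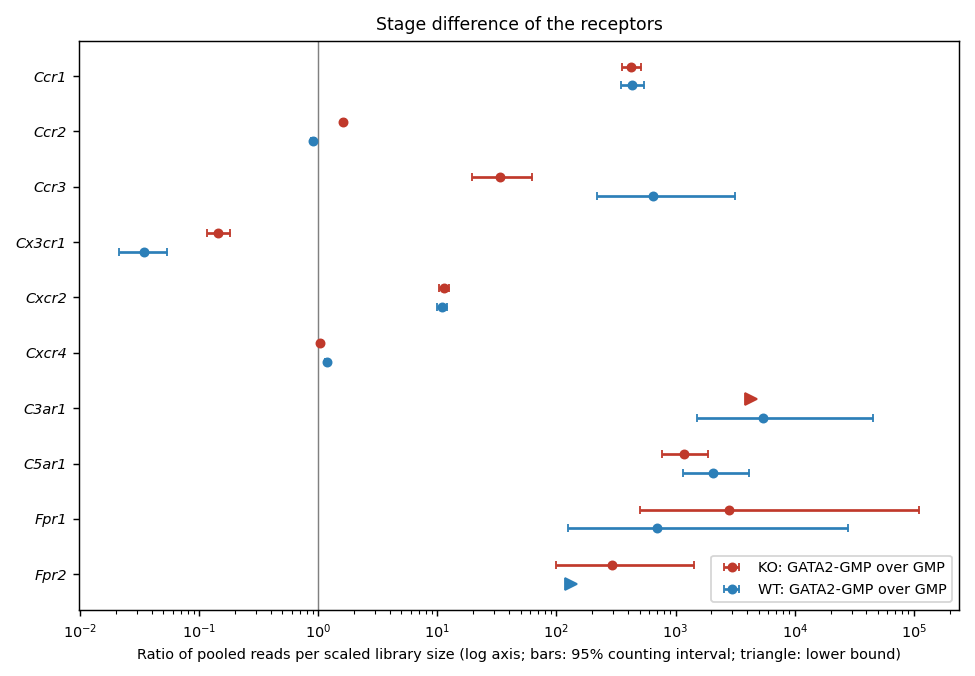
Ratio of pooled reads per scaled library size, GATA2-GMP over GMP, for each receptor in KO and in WT cells (log axis), with 95% counting intervals as bars and lower bounds as triangles where GMP had 0 reads. Ratios ran from 0.146 (Cx3cr1) to a bound of 4331 (C3ar1) in KO cells and from 0.0348 (Cx3cr1) to 5454 (C3ar1) in WT cells.

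Per kilobase of exon, the scale on which genes can be compared, the leading receptor differed between the stages. In GATA2-GMP KO the order was Ccr1 with 216.6 ± 80.8 RPKM (CPM per kilobase of exon; mean ± SD, n = 3), C5ar1 with 122.0 ± 16.4, Cxcr4 with 91.5 ± 15.1, C3ar1 with 37.1 ± 7.05 and Ccr2 with 31.6 ± 1.83 RPKM. The same 4 genes led in GATA2-GMP WT, with 186.6 ± 39.5, 127.1 ± 26.9, 90.6 ± 17.6 and 36.6 ± 9.66 RPKM. In fresh progenitors Cxcr4 came first, with 87.1 ± 11.1 RPKM in GMP KO and 75.3 ± 1.12 RPKM in GMP WT, and Ccr2 second, with 19.0 ± 2.51 and 15.8 ± 1.48 RPKM. Ranges of neighbours in these orders were apart except between C3ar1 and Ccr2 in GATA2-GMP KO, and between Ccr1 and C5ar1 and between C5ar1 and Cxcr4 in GATA2-GMP WT. Ccr3 ranked ninth in GATA2-GMP KO with 1.75 ± 0.37 RPKM and seventh in GATA2-GMP WT with 9.20 ± 6.34 RPKM, where it overlapped its neighbours Ccr2 and Fpr1.

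The second question was what Xbp1 deficiency did to the receptors in GATA2-GMP. The eosinophil receptor Ccr3 was lower and the monocyte receptor Ccr2 higher in all 3 KO libraries than in all 3 WT libraries, but neither passed the threshold. Ccr3 averaged 5.73 ± 1.21 CPM in GATA2-GMP KO and 30.1 ± 20.8 CPM in GATA2-GMP WT (SD, n = 3 each), a log2 difference of -2.39 (SE 0.46, adjusted p = 0.0745). Ccr2 averaged 202.1 ± 11.7 CPM in KO and 87.7 ± 44.3 CPM in WT, a difference of 1.21 (SE 0.37, adjusted p = 0.189). Fpr1 averaged 36.1 ± 29.5 CPM in KO and 10.1 ± 2.99 CPM in WT, a difference of 1.83 (SE 0.56, adjusted p = 0.185), with KO 2 below WT 3, and without KO 3, its highest library, the difference was 0.95 (adjusted p = 0.401).

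No receptor of the 10 was called in that comparison, where edgeR called 0.376% of 11699 genes. At an unadjusted p under 0.05, Ccr2 and Fpr1 were higher, where 6.59% of all genes were, and Ccr3 was lower, where 8.31% were. Libraries of the 2 genotypes did not overlap for Ccr3 and Ccr2, 2 of 10 genes, as for 22.6% of all genes tested. DESeq2, which called 3.88% of its genes, called Ccr2, Ccr3 and Fpr1, at adjusted p = 0.033, 2.45e-05 and 0.0136. A fit sharing its spread over all 12 libraries called the same 3 genes, with 11.4% of all genes called. Ccr3 passed in edgeR without GATA2-GMP WT 3 (-2.67, adjusted p = 0.0134; 4.38% of genes called) and without a filter on low counts (adjusted p = 0.000611; 1.53% called), and without GATA2-GMP WT 1 its difference was -1.66 (adjusted p = 0.175).

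None of the other 7 receptors reached an unadjusted p under 0.05. Cx3cr1 gave a log2 difference of 2.18 (SE 1.05, adjusted p = 0.379), a value that rests on the 21 reads of the WT group and became 5.53 (adjusted p = 0.0336) without GATA2-GMP WT 3, which leaves a single WT read. Cx3cr1 passed the filter on low counts here only through GATA2-GMP KO, so a higher KO level was built into its being tested. Fpr2 gave 0.90 (SE 0.46, adjusted p = 0.403) and Ccr1 0.22 (SE 0.31, adjusted p = 0.791). Cxcr2, Cxcr4, C3ar1 and C5ar1 gave -0.02, 0.02, 0.02 and -0.06 with SE of 0.23 to 0.30 and adjusted p of 0.937 to 0.981. The median log2 difference of the 10 was 0.12, and that of all genes tested was -0.005.

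**Figure D3:**
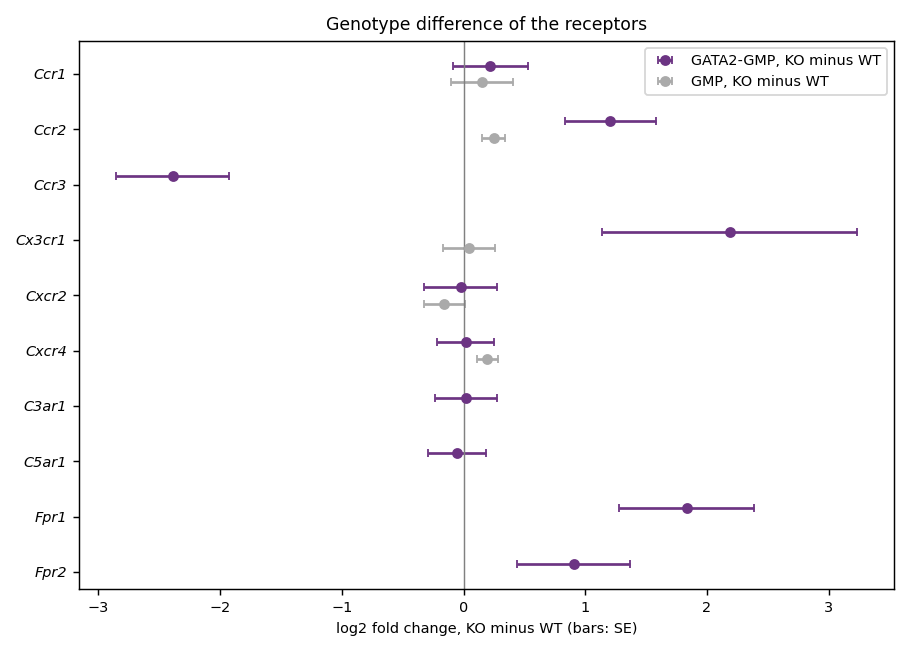
Log2 fold change of each receptor, KO minus WT, with its SE as a bar, in GATA2-GMP and in GMP; receptors not tested in GMP have 1 point. In GATA2-GMP Ccr3 sat at -2.39 and Cx3cr1, Fpr1 and Ccr2 at 2.18, 1.83 and 1.21, while the 5 receptors tested in GMP lay between -0.16 and 0.25.

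Setting the eosinophil receptor against the others inside each library removes the scaling. Ccr3 took 0.346, 0.387 and 0.362% of the reads of the 10 receptors in GATA2-GMP KO and 4.35, 1.19 and 1.32% in GATA2-GMP WT. The log2 ratio of Ccr3 reads to those of Ccr2 and Cx3cr1 was -5.44, -5.25 and -4.82 in GATA2-GMP KO and 0.46, -2.76 and -2.49 in GATA2-GMP WT. The log2 ratio of Ccr3 reads to those of the neutrophil receptors Cxcr2 and Fpr1 was -4.36, -4.01 and -4.10 in KO and 0.13, -2.15 and -2.51 in WT. On each of these measures each KO library lay below each WT library, and WT 1, with the most Ccr3 and the least Ccr2, stood apart from WT 2 and WT 3. These ratios reuse the counts above and were not tested on their own. Over the whole set, the summed level was 1304 to 1970 CPM in GATA2-GMP KO and 1243 to 1561 CPM in GATA2-GMP WT.

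**Figure D4:**
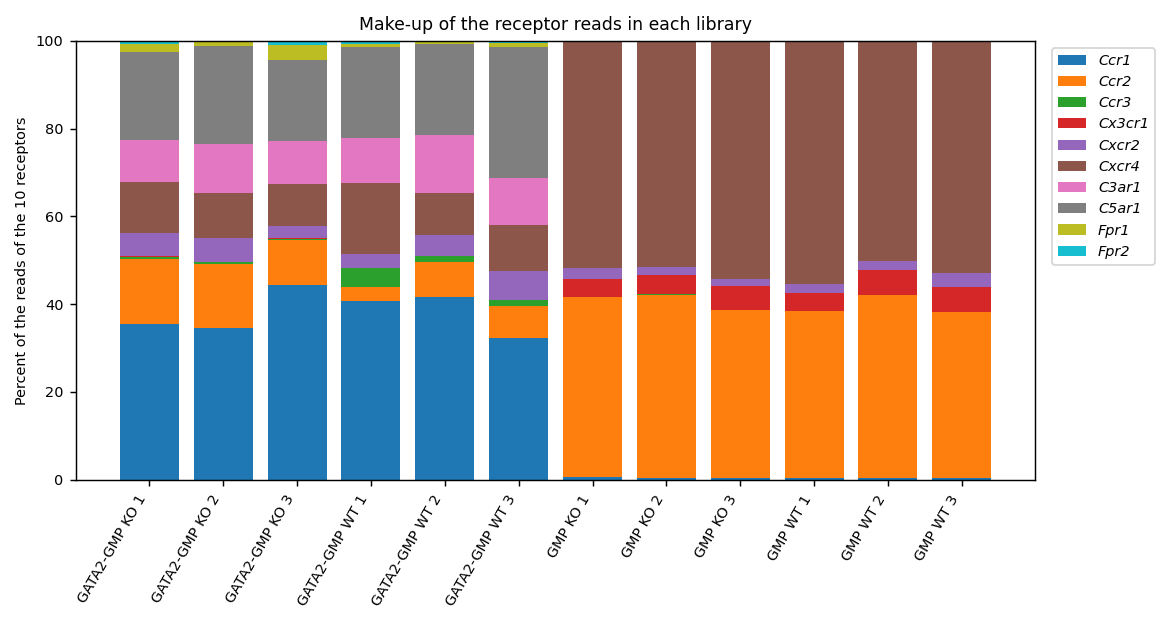
Percent of the reads of the 10 receptors that each receptor took in each of the 12 libraries. Cxcr4 and Ccr2 took 49.99 to 55.4% and 37.8 to 41.7% in the 6 GMP libraries, and Ccr1 took 32.3 to 44.4% in the 6 GATA2-GMP libraries.

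Markers of other cell types moved beside these values to different extents. Of the 9 eosinophil markers, 2 fell in GATA2-GMP KO, the ribonuclease genes Ear1 (-6.51, adjusted p = 0.00899) and Ear2 (-6.30, adjusted p = 0.00899), whose near-identical family may share reads, where 0.376% of all genes were called. At an unadjusted p under 0.05, 8 of the 9 were lower, as were 8.31% of all genes. Ccr3 reads per 1000 reads of Prg2, the gene of eosinophil major basic protein, were 0.101, 0.084 and 0.130 in GATA2-GMP KO and 0.304, 0.154 and 0.138 in GATA2-GMP WT, without overlap. Per 10000 reads of all 9 eosinophil markers they were 0.890, 0.738 and 1.18 in KO and 2.61, 1.37 and 1.05 in WT, where KO 3 lay above WT 3. Such ratios depend on the marker chosen. On the log2 scale Prg2 differed by -1.37, Prg3 by -1.27 and Epx by -2.42, beside -2.39 for Ccr3. Whether Ccr3 fell more than the eosinophil markers was not tested. Summed markers of monocytes and macrophages (12 genes led by Csf1r, Ly6c2 and Ly6c1) were 2901 to 5616 CPM in GATA2-GMP KO and 4002 to 8463 CPM in GATA2-GMP WT, and those of neutrophils (12 genes led by Mpo, Elane and Prtn3) 38600 to 63170 CPM and 44090 to 75030 CPM. Neither list moved as one, and none of their genes was called. Of the monocyte genes, Ly6c2 made up most of the sum, at 2810 CPM on average in KO and 5658 CPM in WT, whereas Lyz2 had 567 CPM in KO and 279 CPM in WT and Cd14 30.3 and 18.4 CPM. Of the neutrophil genes, the granule gene Ngp made up most of the sum, at 24870 CPM in KO and 37810 CPM in WT. Also lower on average in KO than in WT were Mpo (1636 and 2254 CPM) and Elane (176.7 and 527.0 CPM). So were Prtn3 (157.6 and 227.9 CPM) and Ctsg (224.8 and 298.7 CPM). In contrast, S100a8 had 9428 and 7181 CPM and Ltf 2769 and 2055 CPM in KO and WT. Lcn2 had 1751 and 1116 CPM and Csf3r 20.4 and 8.79 CPM. Camp, S100a9 and Mmp9 were higher on average in KO as well. Summed markers of mast cells and basophils (10 genes led by Cpa3, Mcpt8 and Mcpt4) were 6942 to 12710 CPM in KO and 4481 to 12220 CPM in WT, where Mcpt4 was at 0 reads. Cpa3 made up most of that sum, at 6593 CPM on average in KO and 4428 CPM in WT. Mcpt8 (920.0 and 1320 CPM) and Ms4a2 (147.0 and 172.4 CPM) were lower on average in KO. The other genes of the list were higher, such as Kit (169.5 and 53.4 CPM), and none was called. Of lymphoid markers (10 genes led by Cd3e, Cd3g and Cd4), 7 had a read in KO, at 12.9 to 40.3 CPM in sum with Cd4 at 0, and 5 in WT, at 6.26 to 14.8 CPM with Cd3e at 0. Nearly all of that sum was Il7r, at 25.1 CPM in KO and 9.28 CPM in WT, and each of the other 9 lymphoid genes averaged below 1 CPM. Of the 9 erythroid and megakaryocyte markers, led by Hba-a1, Hbb-b1 and Klf1, 7 had a read in each genotype, at 446.0 to 711.1 CPM in KO and 428.3 to 720.1 CPM in WT, with both globin genes at 0; most of it was the transferrin receptor gene Tfrc, at 561.1 CPM in KO and 502.0 CPM in WT. The part of any of these cell types in the receptor differences was not tested.

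The third question was the same comparison in freshly sorted GMP, where no receptor passed the test. None of the 5 receptors tested was called, where edgeR called 3.17% of 12002 genes; the other 5 had too few reads to be tested. Ccr2 averaged 121.3 ± 16.1 CPM in GMP KO and 101.2 ± 9.48 CPM in GMP WT (SD, n = 3 each), a log2 difference of 0.25 (SE 0.096, adjusted p = 0.276), and it was the only receptor with an unadjusted p under 0.05 (6.78% of genes tested were higher at that level). Cxcr4 gave 0.20 (SE 0.088, adjusted p = 0.347), Ccr1 0.16 (SE 0.25, adjusted p = 0.835), Cx3cr1 0.05 (SE 0.21, adjusted p = 0.949) and Cxcr2 -0.16 (SE 0.17, adjusted p = 0.726). DESeq2 called none of the 5, with 4.08% of its genes called.

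Deviations from the group means correlated weakly between GMP KO and GMP WT libraries of the same replicate number (0.3, 0.213 and 0.148). The labels do not say that these numbers pair libraries. With the number as a block, Ccr2 rose in GMP KO by 0.24 (SE 0.049, adjusted p = 0.00354), in a fit that called 8.03% of genes. Without GMP KO 1, Ccr2 gave 0.34 (adjusted p = 0.0252) and Cxcr4 0.30 (adjusted p = 0.00587), with 3.29% of genes called. Ccr3 had 14 reads in GMP KO, 11 of them in KO 2, and 3 reads in GMP WT. The ratio per scaled library size was 3.87 (95% counting interval 1.08 to 20.98), in the direction opposite to that in GATA2-GMP. Libraries of GMP KO and GMP WT overlapped in Ccr3, and the interval covers counting error only. In the same GMP libraries the 9 eosinophil markers summed to 318.3 to 643.7 CPM in KO and 77.04 to 272.9 CPM in WT. Their part in the Ccr3 reads was not tested.

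Whether the genotype difference itself differed between the stages was tested as an interaction over all 12 libraries. None of the 10 receptors passed, where 0.0859% of 12803 genes did. Ccr3 gave -4.13 (SE 1.25, adjusted p = 0.147), the difference in GATA2-GMP minus that in GMP, a value that leans on the 17 Ccr3 reads of the GMP libraries. Cx3cr1 gave 2.06 (SE 0.91, adjusted p = 0.314) and Ccr2 0.94 (SE 0.42, adjusted p = 0.323). These 3 had an unadjusted p under 0.05, as 5.96% of genes did with a positive and 8.95% with a negative difference. DESeq2 called Ccr3 (-4.19, adjusted p = 0.0113), with 6.26% of its genes called. Without GATA2-GMP WT 3, edgeR called Ccr3 (-4.42, adjusted p = 0.0396) and Cx3cr1 (5.52, adjusted p = 0.00872), with 9.03% of genes called. Without GMP KO 2, which held 11 of the 14 Ccr3 reads of GMP KO, Ccr3 gave -3.07 (adjusted p = 0.568), without GMP WT 3 -5.03 (adjusted p = 0.265), and without GATA2-GMP WT 1 -3.39 (adjusted p = 0.162).

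Chemoattractant ligands in general, not only those of the receptors described here, were measured in the same libraries, from a list of 27 genes. In GATA2-GMP KO against GMP KO, 16 of 18 tested ligands rose and none fell, with a median of 5.30 on the log2 scale, where 38.6% of all genes rose and 40.0% fell. In GATA2-GMP WT against GMP WT, 12 of 17 tested ligands rose and 1 (Cxcl10, -1.64) fell, with a median of 3.63, where 34.1% of all genes rose and 36.4% fell. The CCR1 ligand gene Ccl6 reached 9034 ± 3353 CPM in GATA2-GMP KO and 15160 ± 6133 CPM in GATA2-GMP WT, against 6.79 ± 0.29 CPM in GMP KO and 6.16 ± 0.67 CPM in GMP WT. Anxa1, whose protein acts on formyl peptide receptors, rose by 5.50 in KO cells and 6.12 in WT cells, and Ccl3 and Ccl4, which encode inflammatory CC chemokines, by 4.15 and 6.60 in KO cells and 4.27 and 6.22 in WT cells. In KO cells Ccl9 rose by 2.87, and Ccl22 had 427 reads in GATA2-GMP KO and 0 in GMP KO. In WT cells Ccl17 had 399 reads in GATA2-GMP WT and 2 in GMP WT, and Cxcl3 had 101 and 3. Ligands with so few GMP reads passed the filter only through GATA2-GMP, so a difference was built into their being tested. With those at 0 in GMP put at their lower bound (3 in KO cells, 2 in WT cells) the medians were the same. That exchange kept the same ligands in the list, so it cannot show how far the filter shaped the medians. The eotaxin gene Ccl11 had 0 reads in all 12 libraries, and the eotaxin gene Ccl24 averaged 0.124 and 0.182 CPM in GATA2-GMP KO and WT.

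Between the genotypes, 1 ligand was called: Ccl9 fell in GMP KO, to 151.7 ± 3.96 CPM, against 193.8 ± 18.3 CPM in GMP WT (log2 -0.37, SE 0.070, adjusted p = 0.0108; 11 tested). In GATA2-GMP none of 18 was called, with a median of 0.82; 7 were higher and 0 lower at an unadjusted p under 0.05, and DESeq2 called 5 as higher. Over all genes, 6.59% were higher and 8.31% lower at that level, and DESeq2 called 3.88% in either direction. Of 31 other chemoattractant receptors, none was called between genotypes in GMP (9 tested) or in GATA2-GMP (14 tested, median 0.34). At an unadjusted p under 0.05 they numbered 1 higher and 1 lower in GMP and 0 higher and 2 lower in GATA2-GMP, and DESeq2 called 0 in both. Between the stages, 11 of 13 rose and 2 fell in KO cells (median 2.62), and 8 of 11 rose and 1 fell in WT cells (median 1.72), where the shares over all genes were the 38.6% and 40.0% and the 34.1% and 36.4% given above. The decoy C5a receptor C5ar2 rose by 5.45 in KO cells and 6.99 in WT cells, the sphingosine 1-phosphate receptor S1pr1 by 4.13 and 2.27, the atypical receptor Ccrl2 by 2.31 and 1.72 and the platelet-activating factor receptor Ptafr by 3.52 and 3.35. The chemerin receptor Cmklr1 rose by 2.64 in WT cells. The histamine receptor Hrh4 had 523 and 560 reads in GATA2-GMP KO and WT and 0 in both GMP groups, so it too was tested only through GATA2-GMP. Between the stages this also held for C5ar2 (43 and 22 reads in GMP KO and WT) and, in WT cells, for Cmklr1 (12 in GMP WT). In KO cells it held for S1pr1 (26 reads in GMP KO) and for genes such as Ccr7 (7) and Ccr9 (18). A rise was thus built into their being tested. Ltb4r1, the leukotriene B4 receptor, fell by 2.37 in KO cells and by 1.80 in WT cells, and Ltb4r2 fell by 2.17 in KO cells. Ltb4r2 had 5 reads in GATA2-GMP KO and 41 in GMP KO, so it was tested there only through GMP and a fall was built in.

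Of 29 genes of receptor signalling, all tested, none was called between genotypes. At an unadjusted p under 0.05, 0 were higher and 4 lower in GATA2-GMP and 8 were higher and 1 lower in GMP, and DESeq2 called 0 in both. Over all genes, 6.59% were higher and 8.31% lower in GATA2-GMP at that level, and 6.78% were higher and 7.69% lower in GMP. In KO cells 10 rose and 15 fell between the stages (median -0.51), where 38.6% of all genes rose and 40.0% fell. In WT cells 7 rose and 11 fell (median -0.06), where 34.1% of all genes rose and 36.4% fell. Rgs18, a regulator that shortens G-protein signalling, rose by 3.94 in KO cells and 3.95 in WT cells, and the Rac GTPase gene Rac2 by 2.84 and 2.94. Plcb3, a phospholipase C gene downstream of Gi receptors, fell by 3.51 in KO cells and by 3.39 in WT cells, and Adrbk2, a receptor kinase gene, fell by 3.58 and by 3.65. Medians of all genes tested were -0.05 in KO cells and -0.09 in WT cells. With plain library totals, 6 rose and 18 fell in KO cells and 5 rose and 16 fell in WT cells. With those totals more of all genes fell than rose too, as counted above beside Cxcr4. As for the receptors, these counts stand beside a background in which most genes were called.

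By the root mean square difference in log2 CPM over the 12 libraries, each gene centred on its own mean, the genes nearest to Ccr3 among 12803 were Dhrs9 (0.686), Ddx25 (0.729) and Pilrb2 (0.734). The member nearest to Ccr3 was Fpr2 (1.27) and the farthest was Cx3cr1 (5.65). The closest pairs among the 10 were C3ar1 with C5ar1 (0.542), Ccr2 with Cxcr4 (0.673) and Fpr1 with Fpr2 (0.802), and Ccr1 was nearest to C5ar1 (0.866). Cxcr2 was nearest to Fpr2 (1.49). Cx3cr1 had the least similar nearest member, Ccr2 (2.39). All these values are over the same 12 libraries, which differ by stage and kit together.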

How the data were processed

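The files are the authors' deposited tables, 1 per library, of raw counts for each gene symbol: all values are whole and library sums differ. STAR 2.3.0, SAMtools 0.1.14, HTSeq, DESeq and build mm9 are named, without roles, per the submitters' processing notes; annotation and strand setting are not given in the sources used here. The 5 counter rows (55.8 to 66.5% of records) were set aside. A spreadsheet had changed 27 gene names to dates; 23 could be restored, and 4 ambiguous ones were left out, leaving 23362 genes. No 2 libraries were the same: the closest pair differed in 14460 genes.

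Tests used edgeR 4.0.16 under R 4.3.3 (filterByExpr, TMM, glmQLFit with robust=TRUE, glmQLFTest) on the 6 libraries of each comparison, or all 12 for the interaction, with Benjamini-Hochberg adjustment across the genes tested; calls needed an adjusted p under 0.05. The SE is the log2 fold change over the square root of F. The procedure was tested on simulated data with the same spread for every gene and no stage difference. That test does not cover receptors as scattered or as low in counts as some here. CPM used TMM among all 12 libraries, and RPKM divided CPM by the exon length of GENCODE models on mm9. Ratios of pooled reads have 95% counting intervals, and a group at 0 was given a floor of 3 counts. DESeq2 1.42.0, RLE factors, no filter, a replicate block, 1 fit of all 12 libraries, plain totals and leaving out each library were tried as alternatives. Promoters came from RefSeq (GRCm38.p6), whose coordinates differ from mm9; all 10 genes matched.

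The replicate numbers come from the sample titles. Deviations from group means of same-numbered libraries correlated at 0.3, 0.213 and 0.148 between the GMP genotypes, so the block is given there. They correlated at -0.139, -0.277 and -0.45 in GATA2-GMP, and from -0.05 to 0.033 between the stages, where no pairing was assumed.

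All 10 receptors are named; of the other lists, up to 6 called genes per direction with the smallest adjusted p were eligible; of the marker lists, the first 3 genes and the sum. Prg2, Ear1, Ear2, Ccl11, Ccl24 and single marker genes that carry or oppose a list's sum were named besides these after their values were seen, and Ccr1l1 and Fpr3 for their sequence or position. The receptors and lists were chosen with earlier results of these data known.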

Additional observations from a re-analysis of the deposited data

How the results depend on the processing

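Of the log2 fold changes of the receptors under all alternatives, 548 kept direction and side of the threshold, 17 came to pass it, 1 no longer passed (Ccr2 between the stages in KO cells with plain library totals) and 34 changed sign, none of them of a receptor called in the main test. Plain library totals were added after the data were seen, and with them Cxcr4 turned to -0.61 (KO) and -0.57 (WT) between the stages, and Cxcr2 to 0.16 and C5ar1 to 0.11 between genotypes in GATA2-GMP. Without the filter, Cxcr4 gave -0.0024 and C3ar1 -0.0033 in GATA2-GMP and Cxcr4 -0.016 between the stages in KO cells. With the replicate block, Cxcr2 gave 0.029 in GATA2-GMP and 1 receptor was called between GMP genotypes; it changed no other call of a receptor. Between genotypes in GATA2-GMP, 3 receptors were called with DESeq2, 3 with all 12 libraries in 1 fit and 1 without the filter, against 0; in the interaction, DESeq2 called 1. Leaving out 1 library at a time gave 0 to 2 receptors called in each genotype comparison and in the interaction, 9 between the stages in KO cells and 8 to 9 in WT cells. Of all genes, those fits between the stages called 9026 to 10669 in KO cells and 7621 to 9826 in WT cells. Fits with 1 library left out also changed the sign of small differences. Between GMP genotypes, Cx3cr1 ran from -0.12 to 0.22 and Cxcr2 from -0.29 to 0.057. Between genotypes in GATA2-GMP, Ccr1 ran from -0.13 to 0.39, Cxcr2 from -0.29 to 0.20, Cxcr4 from -0.10 to 0.18, C3ar1 from -0.15 to 0.25 and C5ar1 from -0.20 to 0.11. Between the stages, Ccr2 ran from -0.52 to 0.21 in WT cells and Cxcr4 from -0.057 to 0.20 in KO cells. In the interaction, Ccr1 ran from -0.31 to 0.22 and Cxcr2 from -0.15 to 0.34. The cause was not tested.

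Counts over all genes moved more. Between genotypes in GATA2-GMP, 44 genes were called, against 294 without the filter, 502 with DESeq2, 3 with the block, 1461 with all 12 libraries and 0 to 525 with 1 library left out. In GMP, 381 were called, against 964 with the block, 17 with all 12 libraries and 209 to 398 with 1 left out. In the interaction, 11 were called, against 17 with RLE factors, 40 without the filter, 738 with DESeq2, 0 with the block, 18 without robust estimation and 0 to 1179 with 1 left out. Depth limits the receptors with few reads, namely 5 in GMP and Cx3cr1 in GATA2-GMP WT.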
